A study of Mus musculus with 6 samples.

Results

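Messenger RNAs transcribed from the mitochondrial genome and encoding subunits of respiratory complexes I, III and V were examined in BALB/c mice, in their anterior cingulate cortex. They were the 10 rows of the deposited table of 45777 genes whose symbols are ND1, ND2, ND3, ND4, ND4L, ND5, ND6, CYTB, ATP6 and ATP8, and all 10 entered the test, which ran on 19227 genes. The stress group held 3 RNA-seq libraries from mice exposed to social defeat for 5 days (labelled smSDS), in which repeated encounters with an aggressor leave the animal subordinate. The non-stress group (NS) held 3 libraries from mice of the same inbred strain and brain region without that exposure. Age is not given in the sources used here. Nothing in the labels ties a library to an animal of its own, so p-values describe the spread among these samples alone, part of which may be technical.

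Mitochondria keep a small circular genome of their own, which is transcribed from both strands as long precursors that are cut into messenger, ribosomal and transfer RNAs, mostly at the transfer RNAs that lie between the other genes. The proteins it encodes are core membrane subunits of the respiratory chain, which pumps protons across the inner membrane, and of ATP synthase, which uses the proton flow to make ATP. All other subunits come from nuclear genes. Cortical neurons depend heavily on this pathway to pay for ion pumping and synaptic transmission. In a bulk sample, fewer mitochondria-rich cells and less of such RNA per cell cannot be told apart.

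The arrangement of these genes bears on how their reads can be assigned, so the places where they touch are shown first. Sequences and positions are those of GRCm38, the build named by the submitters' processing notes, read from GENCODE M21 transcripts. In order along the molecule the genes are ND1 (chrM:2751-3707), ND2 (chrM:3914-4951), ATP8 (chrM:7766-7969), ATP6 (chrM:7927-8607), ND3 (chrM:9459-9806), ND4L (chrM:9877-10173), ND4 (chrM:10167-11544), ND5 (chrM:11742-13565), ND6 (chrM:13552-14070, minus strand) and CYTB (chrM:14145-15288). ATP8 and ATP6 share 43 bases in different reading frames, ND4L and ND4 share 7, and ND5 shares 14 with ND6, which lies on the opposite strand. Each line gives the last 60 bases of a gene in its own direction, with the bases shared with its neighbour in capitals, at chrM:7910-7969 for ATP8 (plus strand), chrM:10114-10173 for ND4L (plus), chrM:13506-13565 for ND5 (plus) and chrM:13552-13611 for ND6 (minus).
ATP8: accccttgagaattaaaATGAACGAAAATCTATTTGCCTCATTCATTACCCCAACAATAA
ND4L: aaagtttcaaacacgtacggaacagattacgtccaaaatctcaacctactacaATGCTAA
ND5: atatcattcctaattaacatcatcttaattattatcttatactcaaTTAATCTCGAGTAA
ND6: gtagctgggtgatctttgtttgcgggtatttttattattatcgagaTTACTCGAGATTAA
ATP8 with ATP6, and ND4L with ND4, are each carried on a single messenger, as is known in mammals. In human cells the ND5 messenger is known to run on past its stop codon across the region that is antisense to ND6, and the ND6 messenger is known to lack a poly(A) tail. Whether the counting used strand is not given in the sources used here, so counts assigned to ND6 and reads of an ND5 messenger that runs past its gene cannot be told apart.

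The cDNA kit named in the labels is known to prime at poly(A), so the 3' ends and the internal runs of A are shown as well. ND4 and CYTB end in a lone T beyond their last full codon, written in capitals below (chrM:11515-11544 and chrM:15259-15288, plus strand), and their stop codon is completed when the poly(A) tail is added.
ND4: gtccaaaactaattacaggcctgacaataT
CYTB: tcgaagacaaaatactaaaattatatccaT
The longest run of A in the sense strand had 8 bases in ND2, 7 in ND4, 7 in ND5, 6 in ND1, 5 in ND3, CYTB, ATP6 and ATP8, 4 in ND4L and 3 in ND6. The runs of ND2 (chrM:4038-4073), ND4 (chrM:10213-10247) and ND5 (chrM:12622-12656, all plus strand) are written in capitals beside that of ND6 (chrM:13992-14022, minus strand).
ND2: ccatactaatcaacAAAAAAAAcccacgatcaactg
ND4: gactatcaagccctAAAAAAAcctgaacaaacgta
ND5: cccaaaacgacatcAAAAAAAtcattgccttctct
ND6: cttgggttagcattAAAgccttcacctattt
The share of A was 40.7% in ATP8, 36.9% in ND2 and 22.2% in ND6, and in the other members it was at most 34.8%.

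Some of these genes have near-identical copies in the nuclear genome. A search of the other GENCODE transcripts (at least 90% identity over at least 100 bases) found copies of 8 members, and those of 4 members lay on chromosome 1 with at least 99% identity. They were Gm10925 (678 bases, 100% identical to ATP6), Gm28438 (345 bases, 99.7%, ND3), Gm28439 (876 bases, 100%, ND4) and Gm10222 (294 bases, 100%, ND4L). Of the 11 copies found, 0 had a row of their symbol in the deposited table. How the authors treated reads that map to several places is not given in the sources used here. The levels of at least ATP6, ND3, ND4 and ND4L relative to the other members are therefore uncertain. Of ND1 and ATP8 no such copy was found by this search. It covered annotated transcripts alone, so it does not show that their reads map to a single place.

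The libraries had totals from 41623899 to 47212982 counts, and non-stress 2 was the deepest. The 10 messengers together took 1.62%, 1.55% and 1.52% of all counts in stress 1, 2 and 3, against 1.46%, 1.02% and 1.35% in non-stress 1, 2 and 3. All 3 stress libraries lay above all 3 non-stress libraries, and non-stress 2 stood far below the other 5. The mean was 1.56 ± 0.0556% in stress and 1.28 ± 0.233% in non-stress (SD, n = 3 each), and the difference in mean log2 share was 0.31. Without non-stress 2 that difference was 0.15, and without non-stress 1 it was 0.41. The spread was wider among non-stress libraries for each gene too: the coefficient of variation of the members' levels was 2.44% to 9.02% in stress and 14.2% to 46.0% in non-stress.

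**Figure D1:**
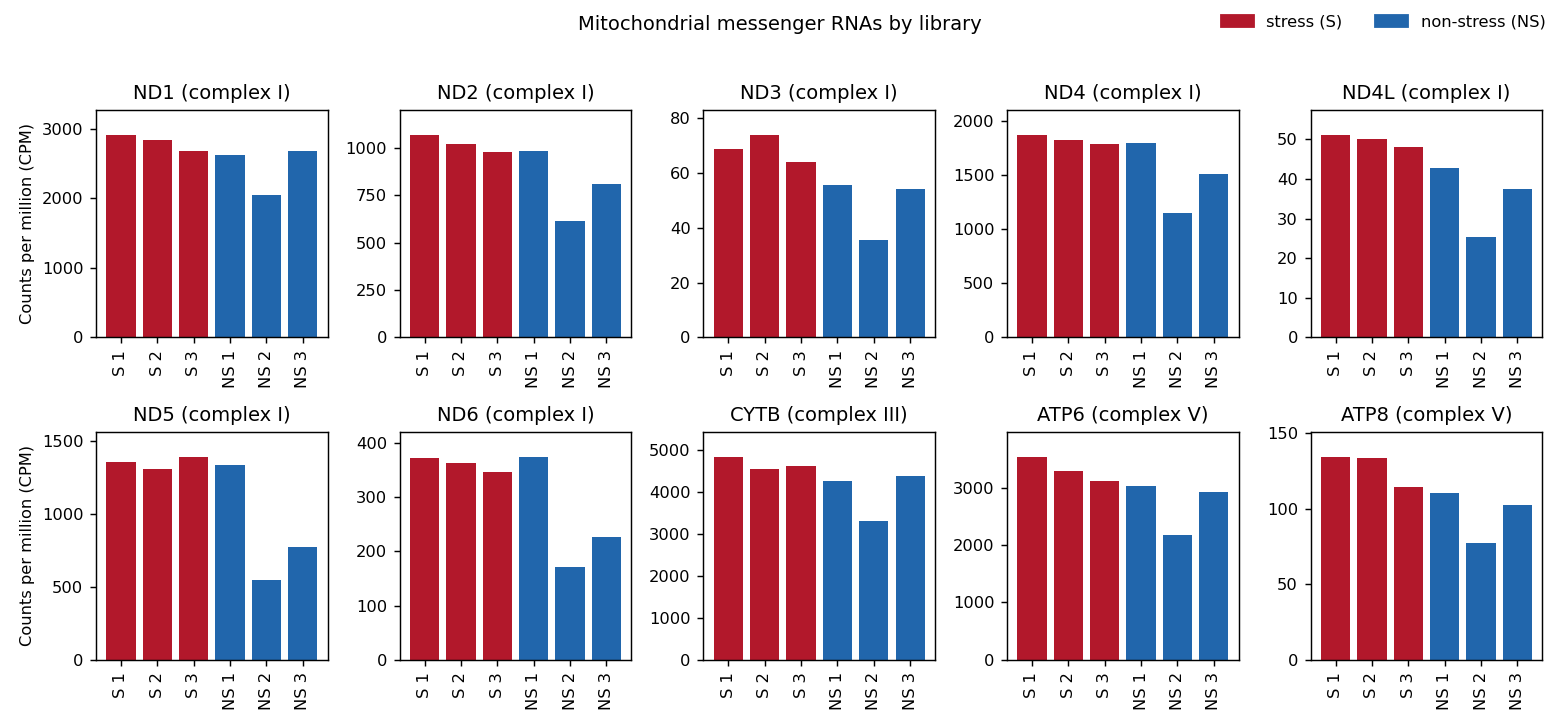
Level of each of the 10 mitochondrial messengers in CPM (linear axes from 0) in stress 1 to 3 (S, red) and non-stress 1 to 3 (NS, blue), 1 bar per library. Non-stress 2 has the shortest bar in every panel, and in ND5 and ND6 non-stress 3 is also far below the stress libraries while non-stress 1 is level with them.

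All 10 members had a higher fitted level in stress, but none passed the test. Their median log2 fold change was 0.38, against -0.00054 over all genes tested. A positive value was found in 49.8% of those genes. With edgeR (quasi-likelihood, adjusted p under 0.05 after Benjamini-Hochberg) 0 of 10 members were called, where 1 gene in the whole table was called (0.0052%). DESeq2 also called 0 members, where it called 0.494% of genes higher and 0.552% lower, and limma-voom called 0, against 0.0104% of genes. At an unadjusted p under 0.05, 9 of the 10 were higher in stress by edgeR, all but ND6, where 5.8% of all genes were higher at that threshold. In 5 members (ND3, ND4L, CYTB, ATP6 and ATP8) the 3 stress libraries all lay above the 3 non-stress libraries, a pattern found in 8.43% of all genes. Non-stress 2 was the lowest of the 6 libraries for all 10 members, against 26.6% of all genes. These 10 RNAs are cut from shared precursors and measured in the same 6 libraries, so they are not independent of each other.

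ND5 had the largest log2 fold change of the members and also the widest spread between libraries. It encodes the outermost of the antiporter-like subunits through which complex I moves protons. Levels are given in CPM, the count of a gene divided by its library's total and scaled to a common size. ND5 stood at 1358, 1313 and 1395 CPM in stress 1, 2 and 3, against 1338, 545 and 776 CPM in non-stress 1, 2 and 3. Non-stress 1 lay within the stress range, while non-stress 2 and non-stress 3 were at 40.2% and 57.2% of the stress mean. The log2 fold change was 0.61 (SE 0.25, edgeR adjusted p = 0.388). With non-stress 1 left out it was 1.04 (edgeR adjusted p = 0.000616), with non-stress 2 left out 0.37, and with non-stress 2 and 3 left out 0.027.

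ND6, like ND5, was lowest in non-stress 2 and next lowest in non-stress 3. It encodes a membrane subunit of complex I and is the only protein-coding gene on its strand. ND6 stood at 373, 364 and 348 CPM in the stress libraries, against 375, 171 and 228 CPM in the non-stress libraries. Non-stress 1 was the highest of all 6, and non-stress 2 and 3 were at 47.4% and 62.9% of the stress mean. Its log2 fold change was 0.49 (SE 0.22, edgeR adjusted p = 0.416). It was 0.86 without non-stress 1 (edgeR adjusted p = 0.000685), 0.27 without non-stress 2 and -0.045 without non-stress 2 and 3, so its direction rested on non-stress 2 and 3.

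These were the members in which non-stress 2 stood furthest from stress. The percentages used here were chosen after seeing the members' values. Of the 10, ND5 and ND6 were under 50% of the stress mean in non-stress 2, as were 0.627% of 10053 genes with a mean of at least 10 CPM, and ND4L and ND3 lay just above it, at 51.0% and 51.6%. All 10 members were under 80% there, against 5.65% of those genes. In non-stress 3 the same ND5 and ND6 were the members under 65%, against 1.03% of those genes.

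ND2 and ND4, which encode the other antiporter-like subunits of complex I, were also lowest in non-stress 2 and next lowest in non-stress 3, with smaller gaps. ND2 stood at 1072, 1020.3 and 979.8 CPM in stress and at 984, 613 and 812 CPM in non-stress. Non-stress 1 overlapped the stress libraries and non-stress 2 and 3 did not, and the log2 fold change was 0.35 (SE 0.13, edgeR adjusted p = 0.377). ND4 stood at 1877, 1826 and 1788 CPM in stress and at 1799.7, 1148 and 1509.8 CPM in non-stress, and non-stress 1 again lay among the stress libraries. Its log2 fold change was 0.30 (SE 0.12, edgeR adjusted p = 0.390). Without non-stress 1 both passed edgeR's threshold (adjusted p = 0.0127 for ND2 and 0.0172 for ND4). Without non-stress 2 the log2 fold change was 0.20 for ND2 and 0.15 for ND4, and without non-stress 2 and 3 it was 0.066 for ND2 and 0.033 for ND4.

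ND1, a subunit at the quinone-binding end of complex I, had the smallest log2 fold change of the 10. It stood at 2918, 2842 and 2680.4 CPM in stress and at 2624, 2053 and 2682 CPM in non-stress. Here non-stress 3 was level with stress 3, and non-stress 2 was the low library, at 73.0% of the stress mean. Stress over non-stress, the log2 fold change was 0.20 (SE 0.09, edgeR adjusted p = 0.404), and 0.09 without non-stress 2.

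The short complex I messengers ND3 and ND4L did not overlap between the groups, and neither passed the test. ND3, which encodes a small subunit with a loop near the quinone site, stood at 68.8, 73.9 and 64.1 CPM in stress and at 55.4, 35.6 and 54.2 CPM in non-stress. Non-stress 2 was the lowest library, and non-stress 1 and 3 were close to each other. A log2 fold change of 0.51 was fitted (SE 0.14, edgeR adjusted p = 0.344, rank 271 of 19227 by p). It stayed above 0 in each fit that left a library out and was 0.34 without non-stress 2 and 0.32 without non-stress 2 and 3. ND4L, which is read from the same messenger as ND4, stood at 51.2, 50.1 and 48.1 CPM in stress and at 42.7, 25.4 and 37.6 CPM in non-stress, with non-stress 2 again lowest. Its log2 fold change was 0.50 (SE 0.15, edgeR adjusted p = 0.344), 0.32 without non-stress 2 and 0.23 without non-stress 2 and 3. Neither ND3 nor ND4L was called in the fit without those 2 libraries (edgeR adjusted p = 0.138 and 0.201).

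CYTB encodes cytochrome b, the mitochondrially encoded subunit of complex III, which holds its quinone sites. It was the member with the highest CPM, at 4837, 4535 and 4617 CPM in stress and 4266, 3304 and 4366 CPM in non-stress. The groups did not overlap, but stress 2 exceeded non-stress 3 by little, and non-stress 2 was the outlying library. The fitted log2 difference was 0.23 (SE 0.09, edgeR adjusted p = 0.378), and 0.12 without non-stress 2.

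The complex V messengers ATP6 and ATP8 also did not overlap between the groups. ATP6, which forms the proton path through the membrane part of ATP synthase, stood at 3552, 3302 and 3131 CPM in stress and at 3040.5, 2189 and 2939.9 CPM in non-stress. The log2 fold change was 0.29 (SE 0.10, edgeR adjusted p = 0.363), 0.16 without non-stress 2 and 0.14 without non-stress 2 and 3. ATP8, a small membrane subunit of the same enzyme, stood at 135, 134 and 114 CPM in stress and at 111, 77.2 and 103 CPM in non-stress. Its log2 fold change was 0.40 (SE 0.12, edgeR adjusted p = 0.344), 0.26 without non-stress 2 and 0.21 without non-stress 2 and 3. In both genes stress 3 was the lowest stress library and non-stress 1 the closest to it.

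**Figure D2:**
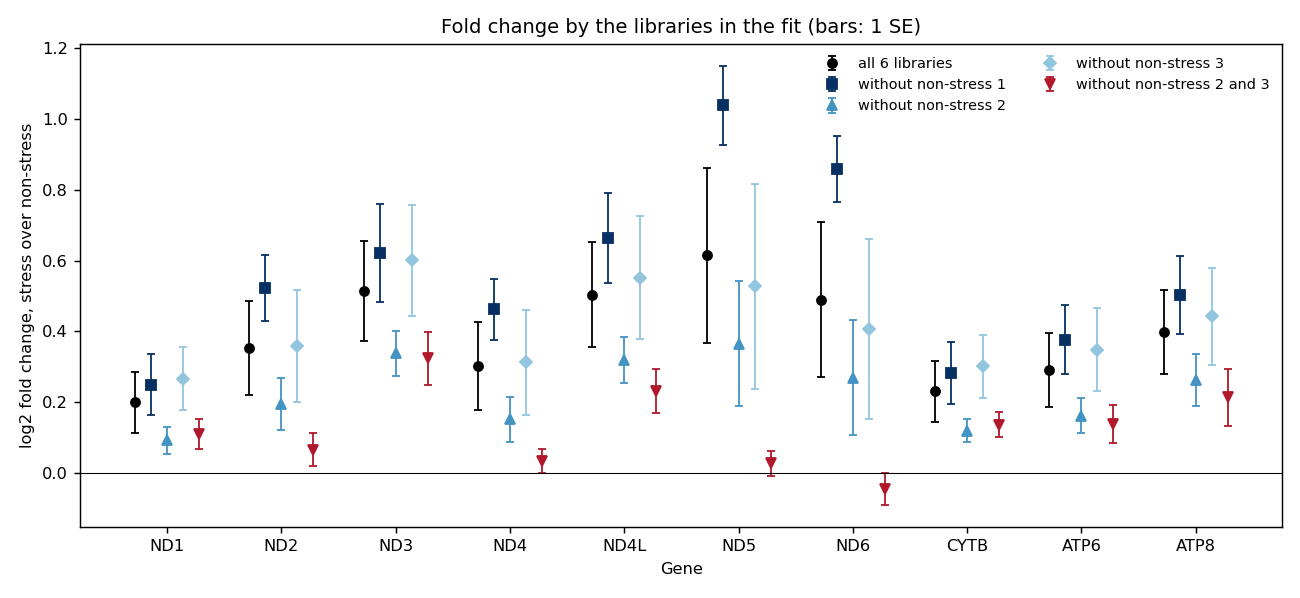
Log2 fold change of each member, stress over non-stress, with 1 SE, in edgeR fits on all 6 libraries (black), without non-stress 1 (dark blue squares), without non-stress 2 (triangles), without non-stress 3 (diamonds) and without non-stress 2 and 3 together (red). ND5 runs between 0.027 and 1.04 and ND6 between -0.045 and 0.86, while ND3 stays between 0.32 and 0.62.

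Which non-stress libraries entered the fit therefore set the size of every difference. Without non-stress 1, edgeR called 7 of the 10 members higher (ND2, ND3, ND4, ND4L, ND5, ND6 and ATP8), where it called 2.94% of all genes higher. ND1, CYTB and ATP6 were not called in that fit (edgeR adjusted p = 0.157, 0.117 and 0.0704). Without non-stress 2, 0 members were called, as against 0.0102% of all genes. The fit without non-stress 2 and 3, which leaves non-stress 1 alone, assumes that it varies like the others and was added after seeing the data. There the median over the members was 0.12. The labels name no batch, so no fit within one could be made.

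The make-up of the mitochondrial messenger RNA does not depend on the library total. For ND1, ND2, ND4, ND4L, ND5, ND6 and CYTB, non-stress 2 and 3 lay outside the range of the other 4 libraries. These shares are not independent of each other. ND5 made up 8.36%, 8.49% and 9.20% of the members' counts in stress, against 9.14%, 5.37% and 5.74% in non-stress. ND6 made up 2.30%, 2.35% and 2.29% in stress, against 2.56%, 1.69% and 1.68% in non-stress. In both, non-stress 1 was level with or above the stress libraries, and non-stress 2 and 3 resembled each other. CYTB, the largest component, made up 29.9 ± 0.560% in stress and 31.3 ± 1.89% in non-stress (SD, n = 3 each). Its non-stress values were 29.1%, 32.5% and 32.3%. ND1 made up 18.0%, 18.4% and 17.7% in stress, against 17.9%, 20.2% and 19.9% in non-stress. ND2 made up 6.60%, 6.60% and 6.46% in stress, against 6.72%, 6.03% and 6.01% in non-stress. ND4 made up 11.6%, 11.8% and 11.8% in stress, against 12.3%, 11.3% and 11.2% in non-stress. ND3 (0.441 ± 0.0320% in stress and 0.377 ± 0.0256% in non-stress) and ND4L (0.319 ± 0.00449% in stress and 0.273 ± 0.0211% in non-stress) were the members whose shares did not overlap between groups. An exact two-sided permutation test gave both p = 0.1, the smallest that 3 against 3 allows, so none of the 10 shares tested could pass 0.05. For the other 8 members the exact permutation p was between 0.3 and 0.8.

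**Figure D3:**
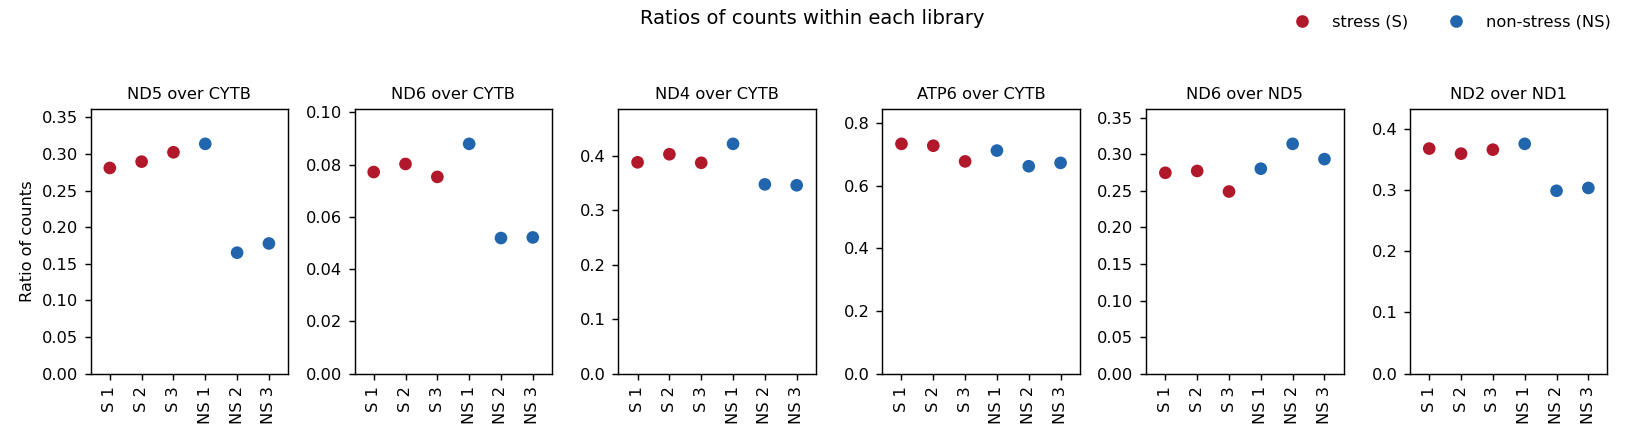
Ratios of counts between pairs of mitochondrial messengers in each library (stress, S, red; non-stress, NS, blue; linear axes from 0). ND5 over CYTB and ND6 over CYTB are low in non-stress 2 and 3 alone, while ND6 over ND5 stays between 0.249 and 0.314 in all 6 libraries.

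Ratios within a library showed the same division. The ratio of ND5 to CYTB counts was 0.281, 0.289 and 0.302 in stress, against 0.314, 0.165 and 0.178 in non-stress. The ratio of ND6 to CYTB was 0.0771, 0.0802 and 0.0753 in stress, against 0.0879, 0.0519 and 0.0521 in non-stress. By contrast ND6 over ND5 had a narrower range, at 0.275, 0.277 and 0.249 in stress, against 0.280, 0.314 and 0.293 in non-stress, with the stress libraries all lower. ND2 over ND1 was 0.364 ± 0.00438 in stress and 0.375, 0.298 and 0.303 in non-stress 1, 2 and 3, and ATP6 over CYTB lay between 0.663 and 0.734 throughout. ND4L over ND4 was 0.0272 ± 0.000275 in stress and 0.0236 ± 0.00138 in non-stress (SD, n = 3 each), although both are read from 1 messenger, and ATP8 over ATP6 was 0.0383 ± 0.00201 in stress and 0.0355 ± 0.000722 in non-stress. In both pairs all stress libraries lay above all non-stress libraries, for ATP8 over ATP6 by little, at 0.0365 in stress 3 and 0.0364 in non-stress 1. Each is a ratio of a short gene to a longer overlapping one. The ratios given here are a selection of the possible pairs, and they were not tested. With 3 libraries against 3, an exact permutation test of a full separation would give p = 0.1 at the smallest.

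The other rows of the mitochondrial genome place these differences along the molecule. The transfer RNA row TrnE, which lies next to ND6 on the same strand, had 543, 629 and 572 counts in stress, against 592, 287 and 330 in non-stress, so it was low in non-stress 2 and 3, as ND5 and ND6 were. TrnM, next to ND2, had 206, 216 and 210 counts in stress, against 169, 119 and 121 in non-stress. The rows of TrnC and TrnS1 were not low in non-stress 3: TrnC had 147, 153 and 151 counts in stress, against 120, 127 and 156 in non-stress, and TrnS1 had 1592, 1570 and 1501 counts in stress, against 1407, 1302 and 1536 in non-stress. The 3 complex IV messengers together took 1.05%, 0.988% and 0.995% of counts in stress, against 0.937%, 0.748% and 1.01% in non-stress, so non-stress 3 lay within the stress range there. The ratio of the 10 members to those complex IV messengers was 1.55, 1.56 and 1.52 in stress, against 1.56, 1.36 and 1.33 in non-stress. The ribosomal RNAs of the mitochondrion took 0.304 ± 0.00531% in stress and 0.277%, 0.202% and 0.298% in non-stress 1, 2 and 3. In those rows non-stress 2 was the lowest library and non-stress 3 was close to the stress libraries.

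**Figure D4:**
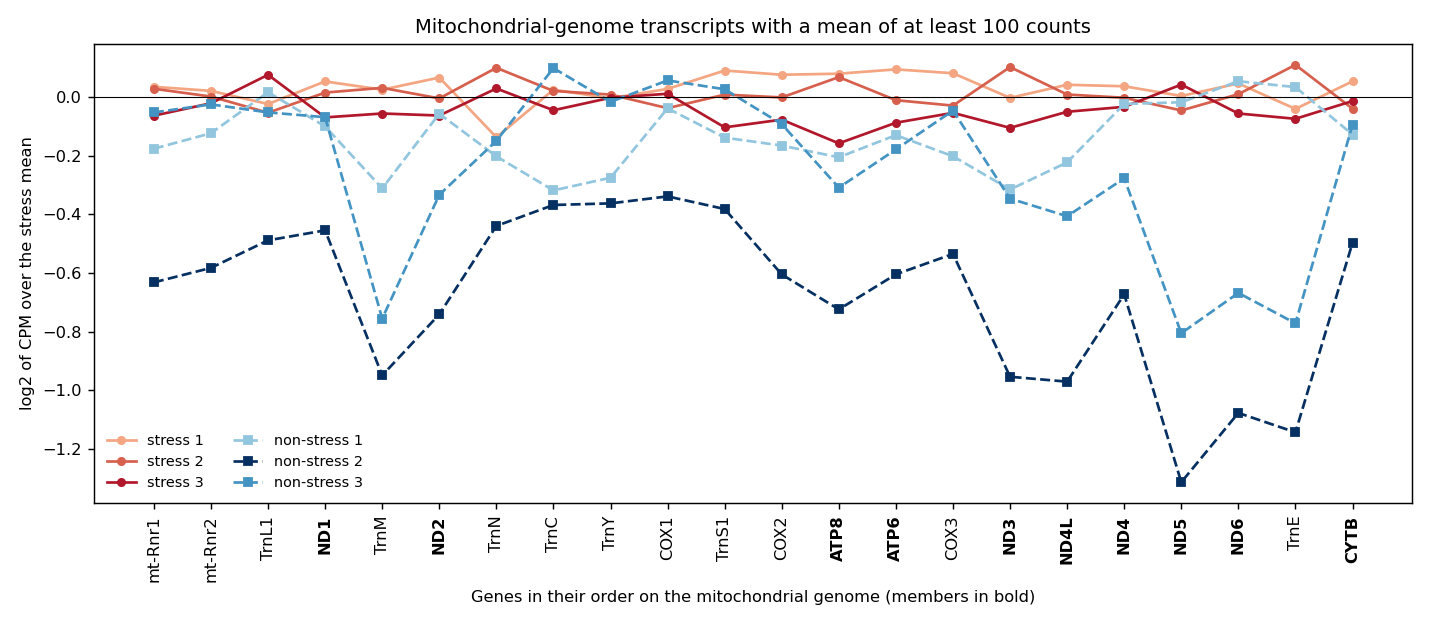
Log2 of each library's CPM over the stress mean for the 22 rows of the mitochondrial genome with a mean of at least 100 counts, in gene order (members in bold; stress libraries in reds with circles, non-stress in blues with squares). Non-stress 2 is below 0 throughout, with its lowest values at ND5, ND6 and TrnE, where non-stress 3 also drops to between -0.67 and -0.81, while non-stress 1 is near 0 at those 3.

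Across the 6 libraries the members' levels varied together. The median Pearson correlation of log2 CPM over the 45 pairs was 0.959, the lowest was 0.831 (ND5 with ND1) and the highest 0.997 (ND2 with ND4). This describes 6 libraries, and the points share each library's total and its mitochondrial share. Non-stress 2 was the lowest library for every member and so weighs heavily in each correlation. Correlations without it were not computed.

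Per kilobase of gene, the members spanned a wide range of levels in spite of their shared precursors. ATP6 was highest, at 4888 ± 311 CPM per kilobase in stress and 3999 ± 683 in non-stress, followed by CYTB (4076 ± 137 in stress and 3478 ± 513 in non-stress) and ND1 (2801 to 3049 in stress and 2145 to 2802 in non-stress). ND4L was lowest, at 168 ± 5.39 in stress and 119 ± 29.8 in non-stress, and ND3 was next, at 198 ± 14.2 in stress and 139 ± 31.9 in non-stress (SD, n = 3 each). In all 6 libraries ATP6 exceeded CYTB, CYTB exceeded ND1, and ND1 exceeded ND4 by a mean factor of 2.31, though over all libraries the range of CYTB overlapped those of ATP6 and of ND1. ND5, ND6 and ATP8 were neighbours in this order. Their order was ND5, ND6, ATP8 in the 3 stress libraries and in non-stress 1, and the reverse in non-stress 2 and 3, where ND5 was at 299 and 425, ND6 at 330.3 and 438, and ATP8 at 378 and 504 CPM per kilobase. The step down to ND3 was clear, with ATP8 above ND3 by a mean factor of 3.30. A gene shorter than the sequenced fragments collects fewer reads per kilobase, and the fragment length is not given in the sources used here.

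**Figure D5:**
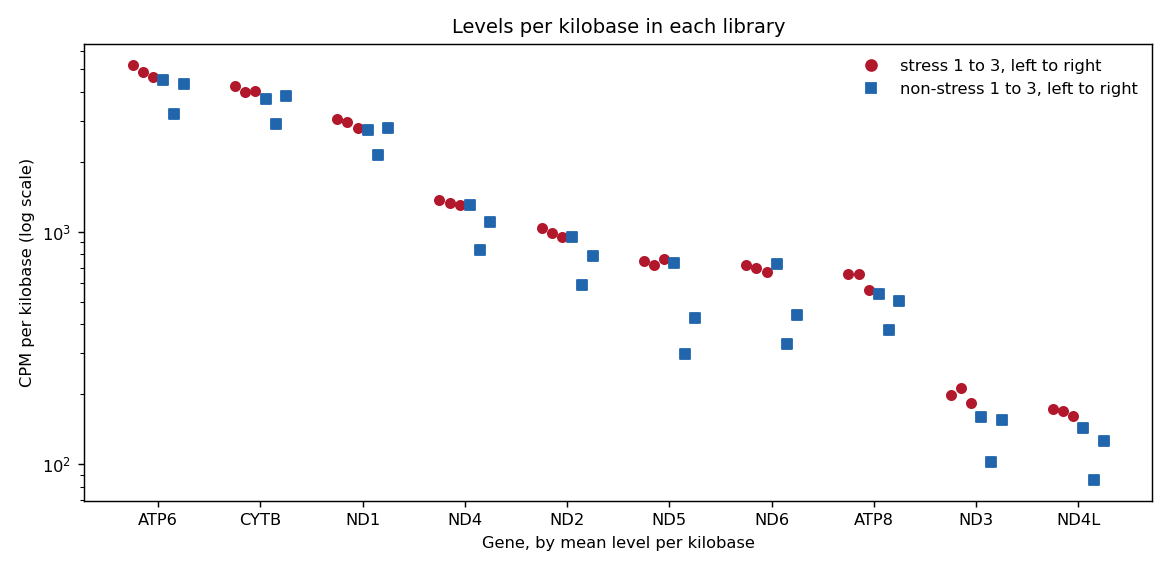
Level of each member in CPM per kilobase of gene (log axis) in stress 1 to 3 (red circles) and non-stress 1 to 3 (blue squares), ordered by the mean. ATP6, CYTB and ND1 form the upper end, ND3 and ND4L the lower end, and non-stress 2 is the lowest point of each gene.

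Nuclear genes that make, process and use these messengers were examined as lists. Of their tested members, 0 passed edgeR's adjusted threshold, which 0.0052% of all genes passed. The lists were chosen with earlier results of these data known. Of 18 genes for transcription and copying of mitochondrial DNA, 0 had an unadjusted p under 0.05 by edgeR, with a median log2 fold change of -0.0037. Of all genes, 5.8% were higher and 6.27% lower at that threshold, so few of 18 would be counted in any such list. Tfam, which packages mitochondrial DNA and starts transcription, stood at 43.7, 43.9 and 43.7 CPM in stress, against 43.1, 36.6 and 43.8 CPM in non-stress (log2 fold change 0.09, SE 0.07, edgeR adjusted p = 0.611). Polrmt, the RNA polymerase of the organelle, had a log2 fold change of -0.07, the transcription factor Tfb2m one of -0.02 and the elongation factor Tefm one of 0.03. The 3 list members of smallest p were Polg (-0.13), Top1mt (-0.13) and Mterf2 (0.10).

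Of 17 processing genes, 0 had an unadjusted p under 0.05 (median log2 fold change -0.02), led by Trub2 (-0.13), Nsun2 (-0.06) and the transfer RNA cutting enzyme Elac2 (-0.09). Of 20 genes for stability and decay, 1 was higher and 1 lower at an unadjusted p under 0.05 by edgeR, near the shares of all genes (5.8% higher and 6.27% lower), and 0 passed after adjustment. Slirp, which binds mitochondrial messengers together with Lrpprc, stood at 18.1, 21.8 and 16.6 CPM in stress, against 15.8, 13.7 and 16.7 CPM in non-stress (log2 fold change 0.29, SE 0.11, edgeR adjusted p = 0.382). Lrpprc itself had a log2 fold change of -0.02 (SE 0.05), Pnpt1, a mitochondrial exoribonuclease, one of 0.18 and Tbrg4, of the FASTK family of RNA-binding proteins, one of -0.36 (edgeR adjusted p = 0.351). Of 19 translation factors 1 was lower at an unadjusted p under 0.05, and their leading members were Mtrf1l (-0.21), Mtrf1 (0.18) and Dhx30 (-0.06). Among 78 mitochondrial ribosomal protein genes the median was 0.02, with 3 higher and 1 lower at that threshold, which is no larger a share than among all genes, led by Mrpl53 (0.20), Mrpl19 (-0.12) and Mrps36 (0.13).

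Of 15 regulators of mitochondrial biogenesis, 5 had a positive log2 fold change. Of the 15, 3 were lower and 0 higher at an unadjusted p under 0.05, where 6.27% of all genes were lower, and 0 passed after adjustment. Esrra, an orphan nuclear receptor that drives respiratory chain genes, stood at 25.1, 27.4 and 28.65 CPM in stress, against 35.45, 37.0 and 28.73 CPM in non-stress (log2 fold change -0.32, SE 0.10, edgeR adjusted p = 0.345). The values of Ppargc1b and Esrrg were -0.20 and -0.18, and that of the coactivator gene Ppargc1a was -0.05. Of 21 genes for nucleotide supply, fusion, fission and quality control, 2 were lower at that threshold, Tk2 (-0.18), a mitochondrial kinase for DNA building blocks, and the protease gene Afg3l2 (-0.13), and Rrm2b had a log2 fold change of 0.22 with an unadjusted p above it.

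The nuclear-encoded partners within the same complexes had median differences closer to 0 than the members' 0.38, though mostly in the same direction. A positive log2 fold change was found in 31 of 36 genes of complex I, 7 of 9 of complex III and 18 of 18 of complex V. Over all genes tested it was found in 49.8%. Median log2 fold changes were 0.08 over 36 complex I subunit genes (10 higher at an unadjusted p under 0.05), 0.08 over 9 of complex III (3 higher) and 0.07 over 18 of complex V (7 higher), with 0 lower in each, where 5.8% of all genes were higher at that threshold, and with 0 passing edgeR's adjusted threshold. Leading members were Ndufs6 (0.22), Ndufa1 (0.25) and Ndufa13 (0.15) for complex I, Uqcr10 (0.20), Uqcr11 (0.17) and Uqcrb (0.18) for complex III, and Atp5e (0.22), Atp5md (0.25) and Atp5k (0.23) for complex V. Ndufs6 stood at 80.4, 78.5 and 73.4 CPM in stress, against 66.4, 62.5 and 70.4 CPM in non-stress, so non-stress 3 was its highest non-stress library, unlike in ND5. Assembly factors had medians of 0.03 over 17 genes of complex I and 0.015 over 10 of complexes III and V. Their leading members were Ndufaf8 (0.22), Tmem126a (0.14) and Foxred1 (-0.12), and Fmc1 (0.22), Uqcc2 (0.14) and Uqcc3 (0.11).

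Outside the mitochondrial genome, the genes most like the summed members over the 6 libraries, out of 10036 with a mean of at least 10 CPM, were Ralyl, Rpf1, Alkbh8, H3f3a and Scai, with Pearson correlations of log2 CPM from 0.990 to 0.998. Their ranges were narrow: Ralyl, an RNA-binding protein gene, stood at 165.5, 163.5 and 163 CPM in stress, against 161, 149.7 and 159 CPM in non-stress. The correlation is a description over 6 libraries that share their totals with the members. Non-stress 2 was the lowest library for each of these genes, as it was for the members.

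The labelled tissue and the markers of other cells were set beside these values. All 20 neuronal markers and all 10 markers each of astrocytes, oligodendrocytes, microglia and endothelium had counts, and the neuronal list summed to 11325 to 11462 CPM in stress and 11348 to 11627 CPM in non-stress. Oligodendrocyte markers summed to 6950, 6866 and 7415 CPM in stress, against 6253, 7729 and 7576 CPM in non-stress, so non-stress 2 and 3 were the highest libraries and non-stress 1 the lowest. Non-stress 2 and 3 were also highest for astrocyte, endothelial and striatal markers. Endothelial sums were 248, 245 and 250 CPM in stress, against 244, 260 and 264 CPM in non-stress. Striatal sums were 297, 311 and 299 CPM in stress, against 299, 324 and 328 CPM in non-stress. They were not highest for microglial markers, nor for choroid plexus markers (201, 205 and 202 CPM in stress, against 231, 196 and 186 CPM in non-stress). A list of 8 RNAs retained in the nucleus summed to 8616, 8606 and 8101 CPM in stress, against 8093, 7153 and 8131 CPM in non-stress, so non-stress 3 lay within the stress range. Kcnq1ot1 and Meg3, picked from this list after their values were seen, were low in non-stress 2 and 3, as ND5 was. Kcnq1ot1 stood at 30.01, 32.9 and 36.5 CPM in stress, against 30.7, 14.9 and 18.8 CPM in non-stress. Meg3 stood at 967, 987 and 983 CPM in stress, against 1006, 753 and 801 CPM in non-stress. Malat1 was not low in non-stress 3, at 6164, 6126 and 5645 CPM in stress, against 5638, 5078 and 5901 CPM in non-stress. The share of all genes low in non-stress 2 and 3, with non-stress 1 among the stress libraries, is not given here. Globin and other red cell markers summed to 368 to 474 CPM in stress and 360 to 459 CPM in non-stress, and 8 pituitary markers, of which 1 had no count, to 3.79 to 14.2 CPM in stress and 1.26 to 3.18 CPM in non-stress. The part of these differences in the values of the mitochondrial messengers was not tested.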

How the data were processed

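Total RNA from 6 libraries had been made into sequencing libraries by SMARTer cDNA synthesis followed by a TruSeq preparation, per the labels' protocols. Per the submitters' processing notes, Trimmomatic 0.38, HISAT2 and StringTie were used with GRCm38 (mm10); no source used here gives the counting step, its strand setting or its handling of multi-mapped reads. The authors deposited whole-number counts per gene, which were used unchanged.

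Of 45777 genes, edgeR's filterByExpr kept 19227. Library sizes were scaled by TMM, and the groups were fitted with edgeR 4.0.16 (R 4.3.3, quasi-likelihood test, group as the single term, two-sided), with Benjamini-Hochberg adjustment over all genes tested and a threshold of 0.05. The quasi-likelihood test reports no SE. The SE given is the absolute log2 fold change divided by the square root of that test's F statistic. CPM use the deposited totals. Shares among the members were compared by exact permutation tests. DESeq2 1.42.0, limma-voom (limma 3.58.1), other size factors and filters, and fits without each library were alternatives. The steps were tested on simulated data with the same dispersion for every gene and no library standing apart. That test does not show whether differences like the members' could be detected. Gene lengths and positions come from NCBI's table for GRCm38 and GENCODE M21, and nuclear copies from blastn 2.17.0. Named in the text are all 10 members, the 3 genes of smallest p of each nuclear list with 7 fixed regulators, and the 5 genes most correlated with the members. The members and lists were chosen with earlier results of these data known. Kcnq1ot1, Meg3, Malat1, TrnE, TrnM, TrnC and TrnS1 were named after their values were seen.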

Additional observations from a re-analysis of the deposited data

How the results depend on the processing

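The fitted direction of ND1, ND2, ND3, ND4, ND4L, ND5, CYTB, ATP6 and ATP8 was higher in stress under all 16 alternatives, and that of ND6 under 15, the exception being the fit without non-stress 2 and 3 (log2 fold change -0.045). The number of members called was 0 in all alternatives except those that left out 1 library each, where it ran from 0 to 7 (7 without non-stress 1). The number of all genes called was 1 with all libraries, 2 with replicate number as a block, 127 with DESeq2, 2 with limma-voom, 4 with robust dispersion, 1 to 756 with 1 library left out, and 63 without non-stress 2 and 3. The members' median log2 fold change was 0.38, and 0.23 to 0.51 with 1 library left out. The log2 difference of their summed share was 0.31, 0.15 to 0.41 with 1 library left out, and 0.093 without non-stress 2 and 3. Leaving out 1 library moved the calls in the lists of RNA stability and of nucleotide supply and quality control between 0 and 1 (Fastk and Tk2, without non-stress 1), and without non-stress 2 and 3, 1 nuclear complex III gene was called (Cyc1). The share of ND4 among the members' counts differed by 0.13 percentage points, and by -0.079 to 0.48 with 1 library left out; that of ATP6 by -0.068, and by -0.36 to 0.25. The cause of these changes was not tested. The replicate numbers of the 2 groups have no stated link, and deviations of same-numbered libraries correlated at 0.0044, -0.020 and -0.0013, so the numbers were not taken to pair the libraries. Each group had 3 libraries, and the smallest difference that could be detected was not worked out. Counting error of the members is small beside the spread among the non-stress libraries, since the lowest member still had 1200 counts in its lowest library.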
